A study of Mus musculus with 6 samples.

Results

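Noncompact myelin, the node of Ranvier and the paranode beside it were represented by 9 genes, *Mag*, *Cadm4*, *Ncmap*, *Gjb1*, *Gjc3*, *Cldn19*, *Nfasc*, *Gldn* and *Nrcam*. They were found by symbol among the 59485 genes of the deposited table, of which 23506 carry a symbol, and each matched 1 row. The study asked how loss of the RNA-editing enzyme ADAR1 from neural crest cells affects Schwann cells (SCs), the glia of peripheral nerve. RNA was sequenced from sciatic nerves at post-natal day 4 (P4) in 3 animals labelled wild-type and 3 labelled as Adar1 fl/fl mutants with Ht-PA-Cre and the R26R reporter. Each animal gave 1 library. The study's methods use wild-type for Cre-negative Adar1 fl/fl or Adar1 fl/+ animals with R26R, whereas its controls can also be heterozygotes with Cre, and the labels do not state the alleles of each wild-type animal. Cre is driven by the human tissue plasminogen activator promoter, which is active in neural crest cells, so cells of other origin in the sample, such as those of vessels, blood and muscle, are not targeted.

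Along a myelinated fiber, SC cytoplasm persists in the inner and outer collars, in the paranodal loops and in Schmidt-Lanterman incisures, and this noncompact membrane carries gap junctions, tight junctions and adhesion molecules. At the node, SC microvilli face the axon through a gliomedin and NrCAM complex, which binds axonal neurofascin and gathers sodium channels. At the paranode, the glial form of neurofascin binds axonal contactin and Caspr, and beyond it the juxtaparanode holds potassium channels.

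Reads counted on genes ranged from 50938349 to 78250094 per library, and all values are reads divided by a DESeq2 size factor ("normalized reads"), with errors as SDs over 3 libraries. *Adar*, the targeted gene, was listed at 1602, 2066 and 1133 in control-labelled libraries but at 11768, 9311 and 9773 in mutant-labelled libraries, a rise that goes against the deletion in the labels. With 1 value for the whole gene, the deleted segment is not seen on its own, and the groups are called control-labelled and mutant-labelled. Tests were made with limma on log2(value + 1) across the 25802 genes with a mean of at least 10 in a group, and a gene passed where its change was 2-fold or more and its p, before adjustment, was no higher than 0.05. The Benjamini-Hochberg adjustment covered every gene tested. The lengths of the counted regions were not used here, so levels are not compared between genes. *Nfasc*, *Nrcam* and *Ncmap* overlap unnamed genes on their own strand, which were listed at no more than 98.3, 46.6 and 0 in any library.

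Of the 9 genes, 7 fell past the threshold and none rose, where 10.4% of all tested genes passed downward and 13.9% upward. No member was higher at an unadjusted p of 0.05 or less in limma, and edgeR and DESeq2 on the recovered reads also placed none higher. The 7 lowered genes were *Ncmap*, *Cldn19*, *Nfasc*, *Mag*, *Gjb1*, *Gjc3* and *Gldn*, and *Cadm4* and *Nrcam* did not pass. The same 7 had a lower value with an adjusted p of 0.05 or less, as had 16.0% of all tested genes. In 8 of 9 members, every mutant-labelled value lay below every control-labelled value, against 23.3% of all tested genes, and *Cadm4* was the member whose groups overlapped. The median log2 fold change of the members was -3.39, where that of all tested genes was 0.03. Less RNA per SC and fewer SCs cannot be told apart for a single gene in whole nerve. Of 6 SC lineage genes (median log2 fold change -1.13), *Sox10*, *Egr2* and *Cdh19* changed by -0.71, -0.72 and 0.13 and did not pass. The other lineage genes *Erbb3*, *Fabp7* (limma adjusted p = 0.0709) and *S100b* fell past the threshold, by -1.55, -1.57 and -3.07. Relative to *Sox10*, 6 of the 9 genes were lower by a difference of -2.62 to -3.72 in the log2 ratio.

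**Figure D1:**
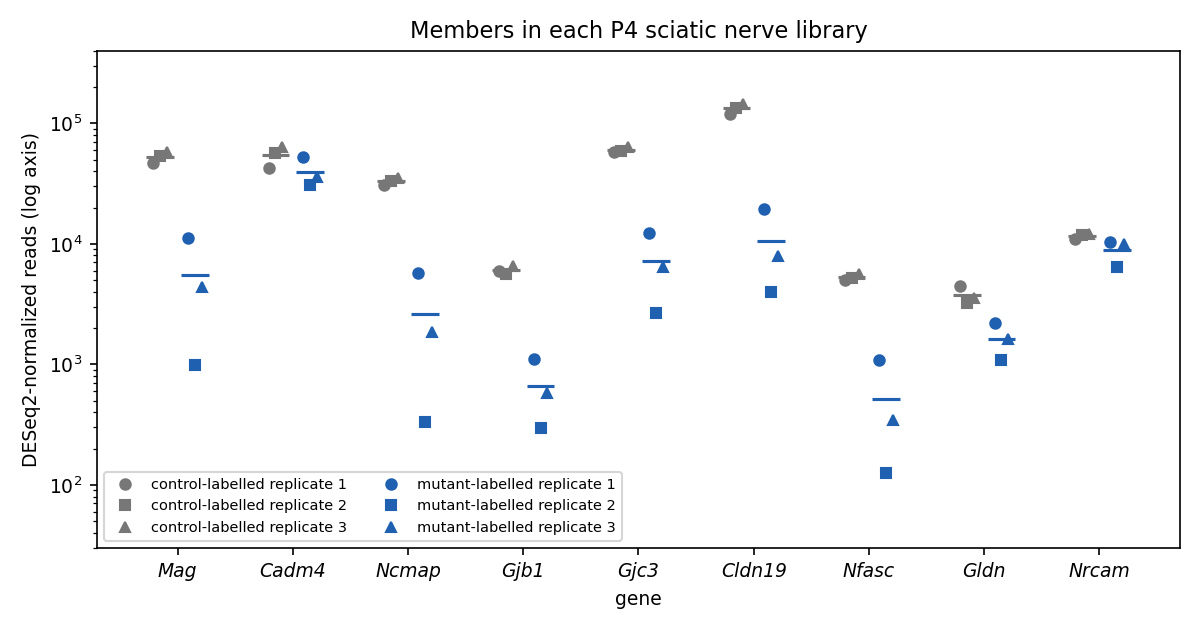
Normalized reads (log axis) of the 9 genes in each P4 sciatic nerve library, with gray symbols for the 3 control-labelled and blue for the 3 mutant-labelled libraries and bars at group means. The groups overlap at *Cadm4* alone, and mutant-labelled replicate 2 is the lowest library for all 9 genes.

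*Mag* encodes myelin-associated glycoprotein, an adhesion molecule of the innermost SC membrane that faces the axon. *Mag* (GSMG0035762, chr7:30899183-30914922, minus strand, mm10) had 47119, 53378 and 57318 normalized reads in control-labelled replicates 1 to 3 and 11204, 992 and 4398 in mutant-labelled replicates 1 to 3. The highest mutant-labelled library still lay well under the lowest control-labelled one. *Mag* fell from 52605 ± 5143 to 5531 ± 5199.5 (n = 3 each), with a log2 fold change of -3.84 (95% interval -5.46 to -2.22, limma adjusted p = 0.00379). It was -2.90 without mutant-labelled replicate 2, -4.65 without mutant-labelled replicate 1, and -3.23 in edgeR and -3.25 in DESeq2.

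*Cadm4* encodes nectin-like 4, the SC partner of the axonal nectin-like proteins along the internode. *Cadm4* (GSMG0034151, chr7:24482021-24504533, plus strand) had 42953, 56815 and 63893 normalized reads in control-labelled libraries against 52681, 30499.8 and 35632 in mutant-labelled libraries. Mutant-labelled replicate 1 lay inside the control-labelled range, whereas the other two lay below it. The group means were 54553.5 ± 10651.5 and 39604.5 ± 11612, and the log2 fold change of -0.48 (95% interval -0.97 to 0.01) did not pass (limma adjusted p = 0.116, 0.0241 to 0.32 over the alternatives).

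*Ncmap* encodes noncompact myelin associated protein, a small membrane protein of SCs. *Ncmap* (GSMG0028504, chr4:135369577-135398229, minus strand) had 31055, 32971 and 35097 normalized reads in control-labelled libraries against 5693, 334 and 1851 in mutant-labelled libraries. It fell to 7.95% of the control-labelled mean, with a log2 fold change of -4.44 (95% interval -6.32 to -2.55, limma adjusted p = 0.00392). The change was -3.35 without mutant-labelled replicate 2, -5.39 without mutant-labelled replicate 1, and -3.64 in edgeR and -3.66 in DESeq2. By the limma value it stood at rank 82 of the 2671 genes that fell past the threshold. Its mutant-labelled values also spread the most, with a highest value 17.1 times the lowest, where control-labelled values differed by 1.13 times.

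*Gjb1* encodes connexin 32, which forms gap junctions between layers of noncompact myelin and is the gene of X-linked Charcot-Marie-Tooth disease. *Gjb1* (GSMG0041963, chrX:101376376-101385627, plus strand) had 5949, 5654 and 6602 normalized reads in control-labelled libraries against 1107, 297 and 578 in mutant-labelled libraries. All mutant-labelled libraries were far under the control-labelled mean, at 18.2, 4.90 and 9.52% of it. The log2 fold change was -3.39 (95% interval -4.29 to -2.50, limma adjusted p = 0.000345).

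*Gjc3* encodes connexin 29, found on the innermost SC membrane opposite the juxtaparanodal axon. *Gjc3* (GSMG0031253, chr5:137950992-137963100, minus strand) had 57297, 59199 and 63965 normalized reads in control-labelled libraries against 12257, 2688 and 6451 in mutant-labelled libraries. Both connexin genes thus had their mutant-labelled libraries in the same order and far under the control-labelled ones. *Gjc3* changed by -3.33 on the log2 scale (95% interval -4.35 to -2.31, limma adjusted p = 0.000729). The log2 ratio of *Gjb1* over *Gjc3* was -3.31 ± 0.07 in control-labelled libraries against -3.37 ± 0.17 in mutant-labelled libraries, a difference of -0.06 (exact two-sided permutation p = 0.8, adjusted p = 0.8 over the 5 gene pairs compared).

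*Cldn19* encodes claudin 19, the SC tight junction protein of paranodal loops, incisures and mesaxons. *Cldn19* (GSMG0027000, chr4:119255440-119262438, plus strand) had 119462, 134617 and 145020 normalized reads in control-labelled libraries against 19584, 3958 and 7955 in mutant-labelled libraries. The groups were wide apart, and the mutant-labelled mean was 7.89% of the control-labelled mean. The log2 fold change was -3.96 (95% interval -5.04 to -2.89, limma adjusted p = 0.000403), at rank 162 of the lowered genes, and -4.56 without mutant-labelled replicate 1.

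The starts of these genes were searched for letters that the SC factors SOX10 and EGR2 (Krox20) are known to favor, since both factors drive SC myelination. The motifs were ACAAAG or ACAATG (SOX type) and GTGGGNG (EGR type), on both strands, in the 250 bases before each RefSeq start (GRCm38.p6), and no SOX match overlapped an EGR match in the windows of the 9 genes. SOX letters stood at 3 of the 9 genes (*Mag*, *Gjb1* and *Cadm4*) and in 25.2% of all 32817 windows (28.2% of genes). EGR letters stood at 8 of the 9 genes, all but *Gldn*, and in 28.1% of all windows (30.8% of genes). The 9 genes have 17 windows, of which 5 held SOX and 9 held EGR letters. For each of the 3 genes with SOX letters, 1 of its windows is printed, the one with the most SOX matches among those without annotated exon bases, because the 3 include a pair of genes that fell and one that did not pass. Each runs 5′ to 3′ on the strand of its gene, with matches in capitals, and a match on the other strand appears as its reverse complement:
Gjb1, chrX:101383482-101383731, plus strand: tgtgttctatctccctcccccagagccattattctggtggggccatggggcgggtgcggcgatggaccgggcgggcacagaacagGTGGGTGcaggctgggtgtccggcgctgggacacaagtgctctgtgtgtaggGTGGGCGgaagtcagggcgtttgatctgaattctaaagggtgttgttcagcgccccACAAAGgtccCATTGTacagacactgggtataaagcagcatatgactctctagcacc
Mag, chr7:30914923-30915172, minus strand: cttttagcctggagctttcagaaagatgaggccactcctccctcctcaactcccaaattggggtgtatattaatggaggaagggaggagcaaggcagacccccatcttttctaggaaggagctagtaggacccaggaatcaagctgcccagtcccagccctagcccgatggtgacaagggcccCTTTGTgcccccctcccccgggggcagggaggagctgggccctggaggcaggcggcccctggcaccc
Cadm4, chr7:24481773-24482022, plus strand: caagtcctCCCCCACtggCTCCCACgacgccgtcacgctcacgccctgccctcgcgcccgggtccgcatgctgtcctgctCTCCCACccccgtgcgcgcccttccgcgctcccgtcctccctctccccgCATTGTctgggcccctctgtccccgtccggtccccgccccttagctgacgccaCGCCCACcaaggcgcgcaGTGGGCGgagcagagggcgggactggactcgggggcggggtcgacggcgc
In the *Gjb1* window, 2 SOX matches began 57 and 47 bases before the start, and 2 EGR matches 165 and 113 bases before it. The *Mag* window held 1 SOX match, 67 bases before the start, and no EGR match. Another *Mag* window, which overlaps this one and is not printed, held the same SOX letters 126 bases before its own start and the EGR match of *Mag* 35 bases before it. A further *Gjb1* window, also not printed, held 1 SOX match 176 bases before its start. The *Cadm4* window held 1 SOX match at 121 bases and 5 EGR matches between 242 and 50 bases before the start. The letters thus stood at *Cadm4*, which did not pass, as well as at *Mag* and *Gjb1*, which fell. A match is a description of the sequence and no measure of binding.

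*Nfasc* encodes neurofascin, whose shorter form belongs to paranodal glia and whose longer form belongs to the axon at the node. *Nfasc* (GSMG0002094, chr1:132564691-132741800, minus strand) had 4961, 5215 and 5600 normalized reads in control-labelled libraries against 1079, 126 and 342 in mutant-labelled libraries. No mutant-labelled library came above 20.5% of the control-labelled mean. The log2 fold change was -3.86 (95% interval -5.29 to -2.43, limma adjusted p = 0.00194), with -3.11 without mutant-labelled replicate 2 and -4.65 without replicate 1. The table gives 1 value for the gene, whose annotation holds 6 protein-coding transcripts, so glial and axonal forms cannot be told apart.

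*Gldn* encodes gliomedin, the SC microvillar ligand that gathers nodal neurofascin. *Gldn* (GSMG0039543, chr9:54286485-54341785, plus strand) had 4486, 3233 and 3577 normalized reads in control-labelled libraries against 2209, 1080 and 1612 in mutant-labelled libraries. The groups did not overlap, but the mutant-labelled libraries kept 58.7, 28.7 and 42.8% of the control-labelled mean. *Gldn* fell by less than the 6 genes above, with a log2 fold change of -1.25 (95% interval -1.81 to -0.69, limma adjusted p = 0.00497), at rank 2128 of 2671. Without mutant-labelled replicate 2 the change was -0.98, under the 2-fold limit.

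*Nrcam* encodes a cell adhesion molecule that gliomedin holds at SC microvilli and that neurons also make. *Nrcam* (GSMG0008034, chr12:44328885-44601964, plus strand) had 11037, 11753 and 12141 normalized reads in control-labelled libraries against 10409, 6394 and 9994 in mutant-labelled libraries. All mutant-labelled values lay below the control-labelled ones, with replicate 1 and replicate 3 close to them, at 89.4 and 85.8% of the control-labelled mean. The log2 fold change of -0.41 (95% interval -0.81 to -0.01) did not pass (limma adjusted p = 0.101, 0.0648 to 0.297 over the alternatives). Of 10 neuron markers, 4 passed upward (*Tubb3*, *Nefm*, *Elavl4* and *Syt1*). All 10 markers together summed to 6957 to 7449.9 normalized reads in control-labelled libraries against 13120.7 to 13453 in mutant-labelled libraries. The part of neuronal RNA in the *Nrcam* and *Nfasc* values was not tested.

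**Figure D2:**
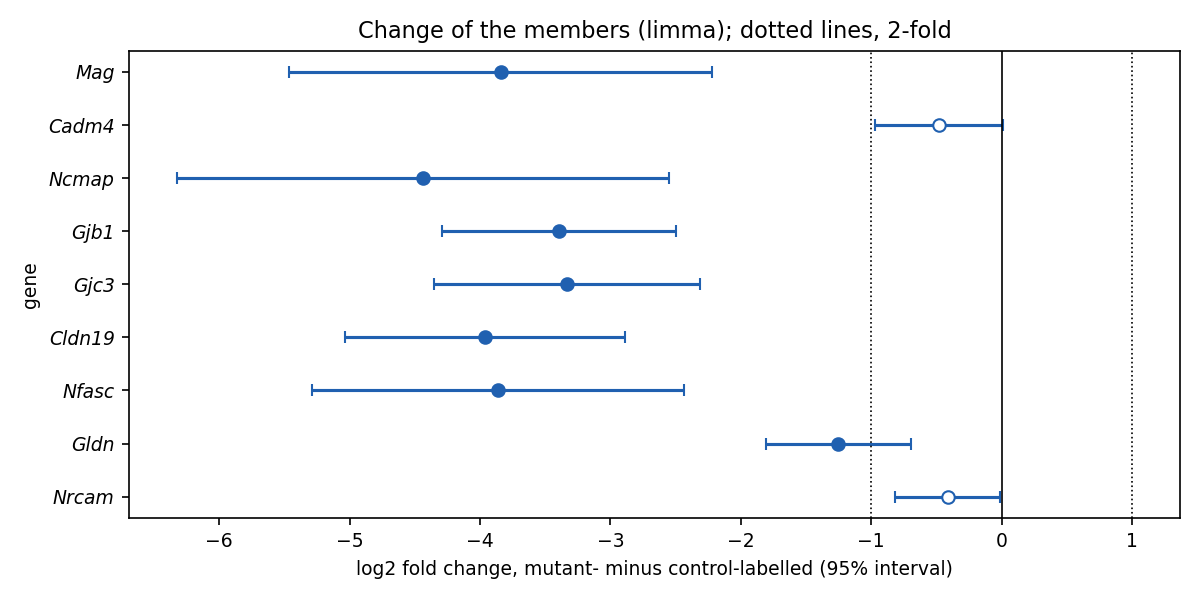
Log2 fold change (mutant- minus control-labelled, limma) of the 9 genes, with 95% intervals, filled points for genes past the threshold and dotted lines at 2-fold. The intervals of 6 genes lie wholly beyond 2-fold, that of *Gldn* crosses the limit, and *Cadm4* and *Nrcam* sit at -0.48 and -0.41.

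Ratios within a library were compared for pairs of genes that act at the same site, with *Nfasc* as the sum of its forms. The log2 ratio of *Nrcam* over *Gldn* was 1.64 ± 0.30 in control-labelled libraries against 2.48 ± 0.21 in mutant-labelled libraries. The ratio of *Nrcam* over *Nfasc* was 1.15 ± 0.03 in control-labelled libraries against 4.59 ± 1.21 in mutant-labelled libraries. Between the adhesion molecules of the internode, *Cadm4* over *Mag* was 0.04 ± 0.15 in control-labelled libraries against 3.40 ± 1.39 in mutant-labelled libraries. *Cadm4* over *Cadm3*, the gene of the axonal nectin-like 1, was 3.33 ± 0.24 and 4.17 ± 0.21. Each of these 4 ratios was higher in 3 of 3 mutant-labelled libraries than in any control-labelled library (exact two-sided permutation p = 0.1, the smallest that 3 against 3 allow, adjusted p = 0.125 over 5 pairs). The mean differences in these ratios follow from the log2 fold changes of the single genes, so they are a description and no separate evidence.

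The mutant-labelled libraries kept 1 order in all 9 genes, with replicate 1 highest, replicate 3 next and replicate 2 lowest. Among all tested genes, 18.4% had this order, and among those that fell past the threshold 29.8%. The highest mutant-labelled value was 3.73 to 17.1 times the lowest in *Mag*, *Ncmap*, *Gjb1*, *Gjc3*, *Cldn19* and *Nfasc*, 2.05 times in *Gldn*, 1.73 times in *Cadm4* and 1.63 times in *Nrcam*. Among control-labelled libraries the same figure was 1.10 to 1.49 over the 9 genes. Control-labelled replicates thus lay close together where the mutant-labelled ones were spread out.

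*Sox10*, the SC lineage factor, had 12618, 11719 and 10919.5 normalized reads in control-labelled libraries against 9171, 5838 and 6828 in mutant-labelled libraries. Its groups did not overlap, its mutant-labelled libraries stood in the same order as the 9 genes, and its log2 fold change of -0.71 (standard error 0.16, limma adjusted p = 0.00874) was under 2-fold. Against *Sox10* in the same library, *Ncmap* was lower by 3.72 on the log2 scale (mean log2 ratio 1.49 and -2.23 in control- and mutant-labelled libraries). Its ratio was spread widely, at -0.69, -4.12 and -1.88 in mutant-labelled replicates 1 to 3, and that of *Mag* was 0.29, -2.56 and -0.63. *Cldn19*, *Nfasc*, *Mag*, *Gjb1* and *Gjc3* had differences of -3.25, -3.15, -3.13, -2.68 and -2.62 in this ratio, and *Gldn* one of -0.54. In these 7 genes the ratio was lower in 3 of 3 mutant-labelled libraries than in any control-labelled library (exact two-sided permutation p = 0.1 each). The share of all tested genes that separate in this ratio was not computed. The mean differences follow from the log2 fold changes of each gene and of *Sox10*, so they are no separate evidence. For *Nrcam* and *Cadm4* the ratio was 0.30 and 0.23 higher in mutant-labelled libraries, with overlapping groups (exact permutation p = 0.2 and 0.5).

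**Figure D3:**
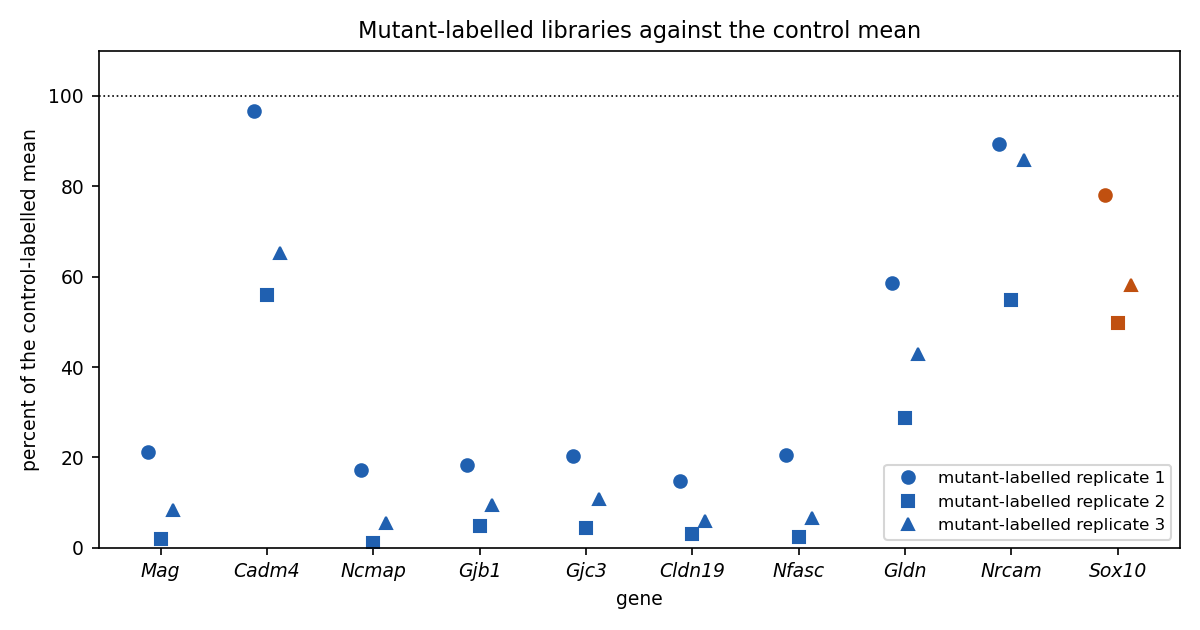
Each mutant-labelled library as percent of the control-labelled mean, for the 9 genes (blue) and *Sox10* (orange), with a dotted line at 100%. In 6 genes all 3 libraries lie at or under 21.3%, whereas *Sox10*, *Cadm4* and *Nrcam* keep more and *Gldn* lies between.

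Of 16 axonal partners and nodal channels, 6 fell, 3 rose and 7 did not pass (median log2 fold change -0.46). The list goes by the site of the proteins, and which cells of the nerve gave the RNA was not tested. *Kcna1* and *Kcna2*, the juxtaparanodal Kv1 potassium channel subunits, were among those that fell. *Kcna2* had 34742, 35909 and 39871.5 normalized reads in control-labelled libraries against 7503, 3212 and 5917 in mutant-labelled libraries (log2 fold change -2.82, limma adjusted p = 0.000122), and *Kcna1* changed by -2.15. *Cntn1*, the gene of contactin 1, changed by -1.79. The nectin-like genes *Cadm2*, *Cadm3* and *Cadm1* changed by -2.21, -1.32 and -1.23, so *Cadm4* was the member of that family of 4 that did not pass. The genes past the threshold upward had few reads. *Cntn2* was listed at 0, 0 and 5.07 in control-labelled libraries but at 21.8, 13.5 and 17.8 in mutant-labelled libraries, *Cntnap2* had a control-labelled mean of 8.02 and a mutant-labelled mean of 69.1, and *Kcnq3* was at 0 in all control-labelled libraries and at 36.4, 26.1 and 64.3 in mutant-labelled libraries. *Cntnap2*, *Kcnq3*, *Cntn1* and *Cadm2* overlap other genes of the table on their strand. *Cntnap1*, the gene of Caspr (log2 fold change -0.53, limma adjusted p = 0.0936), and *Scn8a*, the nodal sodium channel Nav1.6 (-0.47, adjusted p = 0.0224), did not pass.

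Of 21 glial scaffold and junction genes, 6 fell and 15 did not pass (median log2 fold change -0.42). *Cnp*, a phosphodiesterase of noncompact cytoplasm, had 58236, 69939 and 72359 normalized reads in control-labelled libraries against 12078, 5090.5 and 8536 in mutant-labelled libraries (log2 fold change -3.04, limma adjusted p = 8.72e-05). *Mpp6*, a membrane-associated scaffold, changed by -1.77 and the deacetylase gene *Sirt2* by -1.56. *Epb41l2*, the gene of protein 4.1G, changed by -1.13 and *Jam3*, a junctional adhesion molecule, by -1.11. Both went under 2-fold without mutant-labelled replicate 2, at -0.90 and -0.98, and with libraries rescaled to the same total, at -0.97 and -0.95. *Epb41l3*, the gene of the paranodal protein 4.1B, had a log2 fold change of 0.16 (limma adjusted p = 0.328), and *Gja1*, the gene of connexin 43, one of 0.81 (adjusted p = 0.0321).

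The 8 genes of microvilli and perinodal matrix divided, with 2 lower, 2 higher and 4 that did not pass (median -0.02). *Dag1*, the gene of dystroglycan, changed by -1.49 and *Slc9a3r1*, the microvillar scaffold EBP50, by -1.27. *Vcan*, the gene of the matrix proteoglycan versican, had 83.3, 69.9 and 35.5 normalized reads in control-labelled libraries against 141, 177.5 and 343 in mutant-labelled libraries (log2 fold change 1.77, limma adjusted p = 0.0158). *Gpc1*, the gene of glypican 1, changed by 1.03, and by 0.99 or 0.97 without control-labelled replicate 1 or mutant-labelled replicate 3. The ezrin and moesin genes *Ezr* and *Msn*, whose proteins link microvillar membrane to actin, changed by less than 2-fold and so did not pass. Their log2 fold changes were -0.28 (limma adjusted p = 0.025) and 0.83 (adjusted p = 0.000145), and in both genes the groups did not overlap.

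**Figure D4:**
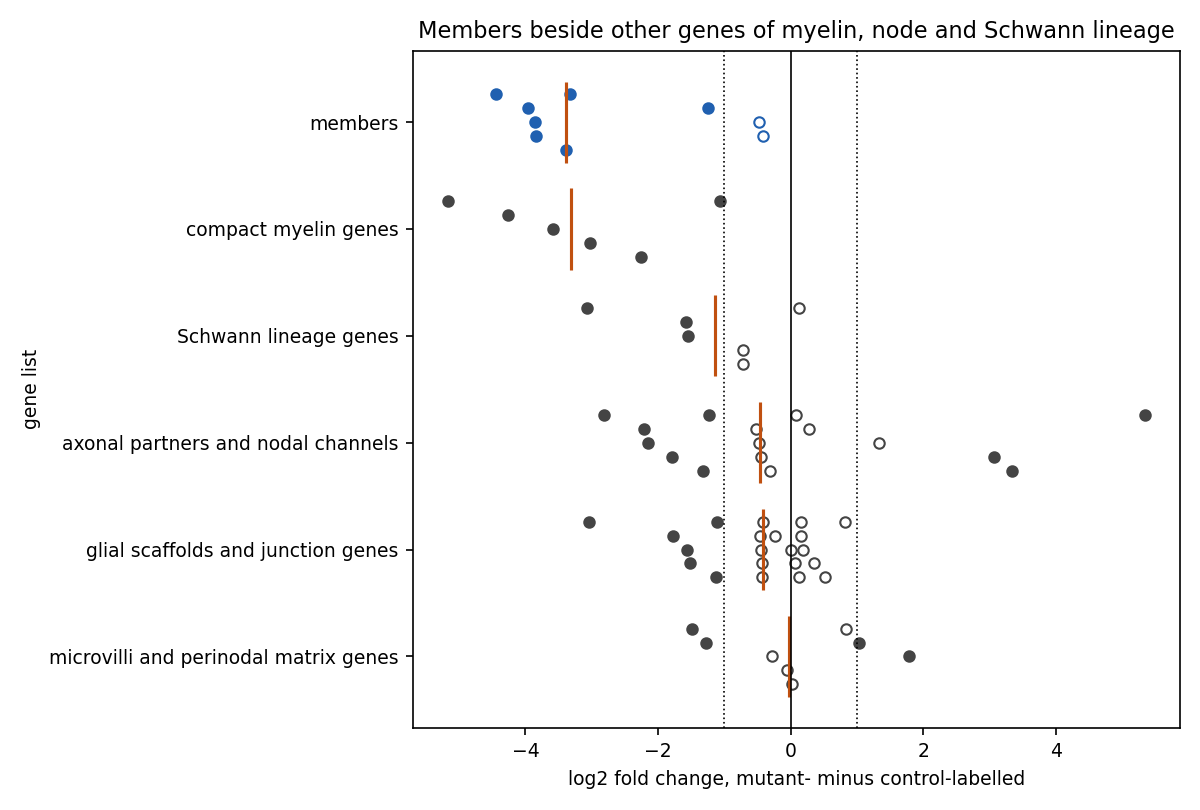
Log2 fold change (mutant- minus control-labelled) of each gene in 6 lists, with filled points past the threshold, orange bars at list medians and dotted lines at 2-fold. The medians run from -3.39 in the 9 genes and -3.31 in compact myelin to -0.02 in microvilli and perinodal matrix.

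The 6 compact myelin genes all passed downward, with a median of -3.31 beside -3.39 for the 9 genes. *Mbp*, *Pmp22* and *Mal* changed by -5.16, -3.58 and -3.03, and *Mbp* by -4.32 and -6.01 without mutant-labelled replicates 2 and 1. *Pmp2* changed by -1.06 with a limma adjusted p = 0.0977, by -0.81 in edgeR and by -0.46 without mutant-labelled replicate 2. Of 6 SC lineage genes, 3 fell and 3 did not pass (median -1.13). *S100b* changed by -3.07, *Erbb3*, the gene of a neuregulin receptor, by -1.55, and *Fabp7*, with at most 67.7 normalized reads, by -1.57 (adjusted p = 0.0709). The *Fabp7* call was lost without either of control-labelled replicates 1 and 2 or mutant-labelled replicates 1 and 2. *Egr2* had a log2 fold change of -0.72 (adjusted p = 0.00989) and did not pass. *Cdh19*, the gene of a cadherin of SC precursors, had one of 0.13 (adjusted p = 0.492), with overlapping groups.

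Genes outside the set with the most similar pattern were found by Pearson's r, over the 6 libraries, with the mean standardized log2 value of the 9 genes. They were *Lmo1* (r = 0.999), *Gpr37l1* (0.99868), *Fa2h* (0.99833), *Ddn* (0.99815) and *Cab39l* (0.99815). *Fa2h*, the gene of fatty acid 2-hydroxylase, had 12478, 14268 and 15817 normalized reads in control-labelled libraries against 1335, 56.9 and 328 in mutant-labelled libraries, the same order of mutant-labelled libraries as the 9 genes. The log2 fold changes were -2.85, -4.04, -5.58, -6.35 and -0.85 in the order given, and *Cab39l* did not pass. Without mutant-labelled replicate 2 the values of *Lmo1*, *Gpr37l1*, *Fa2h* and *Ddn* were -2.21, -3.13, -4.41 and -4.95. Without mutant-labelled replicate 1 those of *Gpr37l1*, *Fa2h* and *Ddn* were -4.86, -6.68 and -7.70, and in edgeR they were -3.44, -4.60 and -4.97. All points share the libraries and the gap between groups, and the genes were selected for this likeness. The coefficients and the shared order of libraries are therefore a description. Among the 9 genes, r with their own mean ran from 0.868 (*Cadm4*) to 0.999 (*Mag*).

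Markers of other cells in the nerve sample also moved, and their part in the values of the 9 genes was not tested. Of 7 skeletal muscle markers, 6 rose, with sums of 6556 to 33981 normalized reads in control-labelled libraries against 43309 to 322257 in mutant-labelled libraries, highest in replicate 3. The 3 adipocyte markers overlapped between groups, with a sum of 6276 in mutant-labelled replicate 2 and at most 1496 elsewhere. All 3 erythroid markers fell, from sums of 39540.2 to 55605 down to 3796 to 11701. Of 5 fibroblast markers, *Col1a1* and *Col1a2* fell, with sums of 774845 to 1177220 in mutant-labelled libraries. Of 4 perineurial markers *Itgb4* fell, of 5 macrophage markers *Csf1r* fell and *Aif1* rose, and the 5 endothelial markers had log2 fold changes of 0.16 to 0.81. T cell markers summed to at most 50.9, and *Cd8a* was listed at 0 in control-labelled libraries and reached at most 20.4 in mutant-labelled libraries. Of 8 oligodendrocyte markers, *Cldn11*, *Mobp* and *Opalin* fell, and the defining markers *Mog*, *Olig1* and *Olig2* reached at most 2.22, 1.89 and 3.96 in any library. The SC markers *Sox10* and *S100b* had at least 5838 and 686 normalized reads in every library, which fits the labelled tissue.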

How the data were processed

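Oriented poly-A libraries from 6 P4 sciatic nerves were sequenced. The authors mapped the reads to mm10 with STAR 2.4.0, counted those on constitutive regions of FAST DB genes, and deposited a signal per gene and library, which is the count divided by a DESeq2 size factor. The strand setting of the counting is not given in the sources used here. Reads were recovered as whole multiples of the value of 1 read (0.727 to 1.27, tolerance 0.01 read) for edgeR and DESeq2.

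log2(value + 1) of 25802 genes was fitted with limma 3.58.1 (eBayes with trend) in R 4.3.3, with both groups taken from the labels. The p and fold limits follow the methods, which used DESeq2 on counts. Alternatives were a pseudocount of 0.1 or 10, a stricter or no filter on low values, other scalings, eBayes without trend, an adjusted p, edgeR 4.0.16, DESeq2 1.42.0, a replicate block, and each library left out. Ratios and pairs were compared with exact permutation tests. Scripts were tested on simulated data.

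The 9 genes and all lists were chosen with earlier results of these data known. From each list by role, the text names up to 5 genes with the largest change past the threshold, those that went the other way and up to 2 that did not pass. *Kcna1*, *Cntn1*, *Cadm1*, *Cadm3*, *Jam3*, *Pmp2* and the marker genes were named after their values were seen. *Scn2a* and *Patj* were matched as Scn2a1 and Inadl, and *Trbc2* was not matched. Some list genes that the rule selects are counted but not reported by name here. Libraries are separate animals. PCR reads carry no molecular identifiers, so depth covers counting error only. Promoter windows are from RefSeq and transcripts from GENCODE. Python 3.11.15 drew the plots.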

Additional observations from a re-analysis of the deposited data

How the results depend on the processing

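The count of 7 lowered and 0 raised members held under all planned settings that kept all libraries. With 1 library left out it was 6 to 7 (6 without mutant-labelled replicate 2, where *Gldn* was at -0.98), and the members' median was -3.87 to -2.90. Rescaling to the same total or to the same 75th percentile gave medians of 0.20 and 0.13 over all tested genes in place of 0.03, and the members' median stayed between -3.40 and -3.18 over the settings that kept all libraries. The median difference in the ratio to *Sox10*, recomputed with other pseudocounts and libraries left out, alternatives chosen after seeing the data, was -2.97 to -2.33 without 1 library. Deviations of equally numbered libraries correlated at -0.06, -0.06 and 0.01, which gave no sign of pairs. Such deviations from means of 3 libraries cannot exclude pairing, and the labels do not state it. With a replicate block, 7 members fell and 0 rose, the median was -3.39, and 6149 of all tested genes passed in place of 6251. Among recomputed values of single genes, 24 no longer passed and 1 newly passed (*Cab39l* without mutant-labelled replicate 1, -1.03). The direction changed only for *Cdh19*, which ran from -0.0165 to 0.22 with 1 library left out (lowest without mutant-labelled replicate 3). Most of these were values of *Pmp2* and *Fabp7*. With 3 libraries a group, permutation tests cannot go below 0.1. Depth was not limiting for the 9 genes, whose lowest count was 131 reads (*Nfasc*), but the *Kcnq3*, *Cntn2* and *Cntnap2* values rest on few reads.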
